A study of Mus musculus with 3 samples.

Results

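Genes that were higher only in recovery are those at least 2-fold brighter in NIH/3T3 cells 14 days after withdrawal of 5aza-dC than in mock-treated cells, without a comparable difference while the drug was present. They were chosen from the deposited normalized intensities on the scale of log2 of the intensity, with intensities below 16 set to 16 and the brightest probe standing for a gene. A gene was taken when Recovery minus Mock was at least 1.0, 5aza-dC minus Mock was below 0.5 and the detection p-value in Recovery was below 0.01. Of 19057 measured genes, 25 met these thresholds and 4 of them were left out by name (Actg2, Myl9, Srpx2 and Zfp521), so that 21 genes are described. The differences of these 21 genes from Mock, and those from 5aza-dC that follow from them, chose the genes and are given as a description with no test.

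NIH/3T3 is an established mouse embryo fibroblast line. The Recovery group received 1 uM 5aza-dC (decitabine), replaced daily for 3 days, and then grew for 14 days without it. The 5aza-dC group received the same exposure without the recovery time, and the Mock group was mock treated. The labels name no recovery time for Mock, and no mock culture is labelled as matched to the 14 days of Recovery. Time in culture and drug withdrawal therefore cannot be told apart in any difference of Recovery from the other groups. All groups were kept in medium with 15% foetal calf serum, and the line is the same in all of them. Total RNA was measured on Illumina bead arrays, and each deposited column holds the mean of 2 arrays. The intensities on the 2 arrays were computed back from the deposited tables, so that each group has 2 values for every gene. The arrays may be the duplicate independent experiments of the study or repeat measurements of 1 RNA, which the sources used here do not say, and the spread between them may therefore be technical. The arrays of a group have no order.

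5aza-dC is a cytidine analog that is built into newly made DNA and traps DNA methyltransferases there, so that methylation is lost as cells divide. After withdrawal the drug is no longer added, the enzymes are made anew and part of the lost methylation can return. Fibroblasts are matrix-producing cells, and several of the genes described here act in the matrix, at the cell surface or on the actin cytoskeleton.

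The median non-normalized signal was 61.1 in Recovery, 61.2 in 5aza-dC and 63.8 in Mock. Of the 19057 genes, 8860 were detected in at least 1 group. Intensities above 100 differed between the 2 arrays of a group with an SD of 0.11 (log2) in Recovery, 0.11 in 5aza-dC and 0.24 in Mock, so the Mock arrays were the least alike. Of 4 measured DNA methylation enzymes, 3 were detected in each group, with Dnmt1 at 424 in Recovery, 400.2 in 5aza-dC and 484 in Mock. Of the enzymes detected, 1 was at least 2-fold lower in 5aza-dC than in Mock (3.54% of all detected genes), and none differed 2-fold between Recovery and Mock. Fibroblast markers were detected for 10 of 11 genes in each group, among them Vim at 12872 in Recovery, 8631 in 5aza-dC and 9692 in Mock. Of the 10, 3 were at least 2-fold higher in Recovery than in Mock (2.45% of all detected genes), and none was 2-fold lower (2.95% of all). Pdgfrb, which is 1 of the 21 genes, is counted among the 3. The collagen transcripts Col1a2 (19.4 in Recovery, 16.2 in 5aza-dC and 26.6 in Mock) and Col3a1 (16.8 in Recovery, 17.3 in 5aza-dC and 16.8 in Mock) were close to background.

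At least 2-fold higher in Recovery than in Mock were 217 of the 8860 detected genes (2.45%), and at least 2-fold lower were 261 (2.95%). Of the 217 higher genes, 149 were also at least 2-fold higher in 5aza-dC than in Mock, and 43 were higher there by 0.5 to 1.0. The other 25 had a 5aza-dC minus Mock below 0.5, negative values included. The 21 genes had a median Recovery minus Mock of 1.23 (range 1.01 to 1.78), against 0 for all detected genes. Their median 5aza-dC minus Mock was 0.08 (range -0.53 to 0.38), against 0.01 for all detected genes, and their median Recovery minus 5aza-dC was 1.13 (range 0.64 to 1.86), against -0.02. Recovery was at least 2-fold above 5aza-dC for 16 of the 21, where 1.17% of all detected genes were. None of the 21 was at least 2-fold below 5aza-dC in Recovery (6.33% of all), and none differed 2-fold between 5aza-dC and Mock, where 8.7% of all detected genes were higher and 3.54% lower. The thresholds fix these directions.

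**Figure D1:**
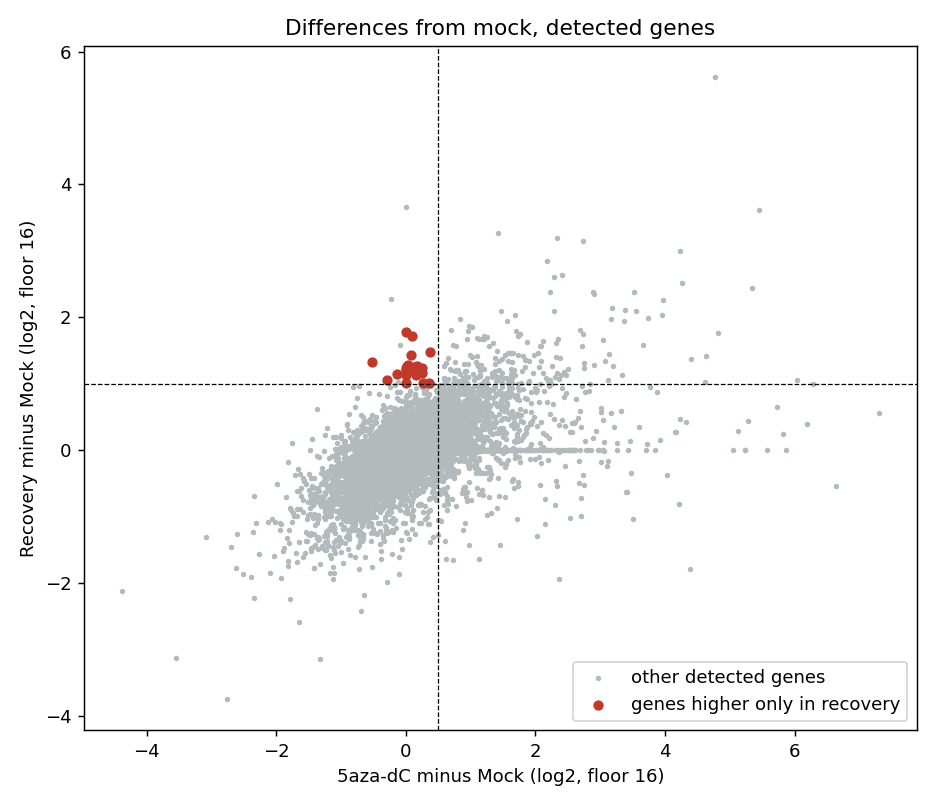
Each point is a detected gene, with 5aza-dC minus Mock on the horizontal axis and Recovery minus Mock on the vertical axis, both in log2 units with intensities below 16 set to 16. The 21 genes (red) lie in the upper left corner that the dashed thresholds at 0.5 and 1.0 cut out, between -0.53 and 0.38 on the horizontal axis, while most genes high in Recovery lie to the right of it.

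On the single arrays, both Recovery values lay above both Mock values for 21 of 21 genes (31.3% of all detected genes) and above both 5aza-dC values for 21 of 21 (32.5% of all). The array values come from the columns that chose the genes, so this separation largely follows from the thresholds and was not tested. The lower Recovery array exceeded the higher Mock array by 0.74 to 1.63 (log2, floor 16). With the same floor, the 5aza-dC arrays lay above both Mock arrays for 6 of the 21 genes (38.3% of all genes) and below both for 2 (31.7% of all). The arrays of these groups overlapped for 13, as for the rest of all genes, and arrays at the floor in both groups count as overlapping. Before the floor, the 5aza-dC arrays of Xlr4a and Col2a1, and barely those of Galnt18, lay above both Mock arrays. Between the arrays of one group the 21 genes differed by medians of 0.06 to 0.12 in Recovery, 0.06 to 0.29 in 5aza-dC and 0.13 to 0.23 in Mock, depending on the intensity range.

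**Figure D2:**
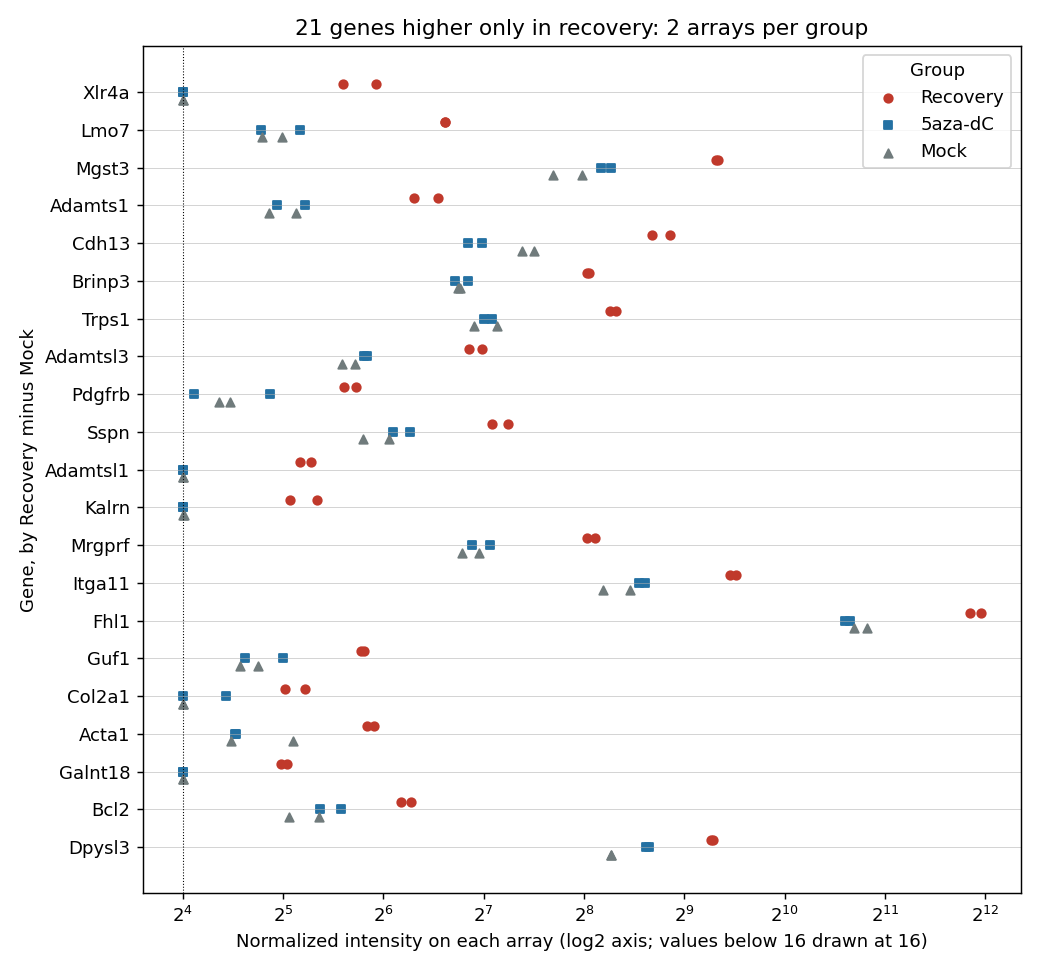
The normalized intensity of the 21 genes is shown on each of the 2 Recovery (red circles), 5aza-dC (blue squares) and Mock arrays (grey triangles), on a log2 axis with values below 16 drawn at 16 and genes in descending order of Recovery minus Mock. In each row both red circles lie to the right of all other symbols, from 31.6 and 32.8 for Galnt18 to 3962 and 3687 for Fhl1.

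Matrix proteins and proteins that handle the matrix made up 4 of the 21 genes. Adamts1, a secreted metalloprotease that cleaves proteoglycans such as versican, had intensities of 93.3 and 79.0 on the Recovery arrays, 30.6 and 37.3 on the 5aza-dC arrays and 29.0 and 35.0 on the Mock arrays. Its lower Recovery array lay 1.17 above the higher Mock array on the log2 scale, and the 5aza-dC and Mock arrays overlapped; the columns differed by 1.43 (Recovery minus Mock) and 0.08 (5aza-dC minus Mock). Adamtsl3 and Adamtsl1 encode relatives of these proteases that lack the catalytic domain and sit in the matrix. Adamtsl3 had 116 and 126 on the Recovery arrays, 56.0 and 57.1 on the 5aza-dC arrays and 52.4 and 48.2 on the Mock arrays, with a Recovery minus Mock of 1.27 and the 5aza-dC arrays above both Mock arrays. Adamtsl1 had 36.0 and 38.9 on the Recovery arrays, 8.97 and 15.7 on the 5aza-dC arrays and 7.71 and 11.3 on the Mock arrays. It was not detected in 5aza-dC or Mock, so its level in Recovery is given as at least 2.34-fold higher than in Mock. Col2a1, the main fibrillar collagen of cartilage, had 32.4 and 37.2 on the Recovery arrays, 9.72 and 21.5 on the 5aza-dC arrays and -4.73 and -4.85 on the Mock arrays. It was detected in Recovery alone, at least 2.18-fold above Mock, but the 5aza-dC column of this probe stood at a detection p-value of 0.014, just short of the limit, and 1 of the 5aza-dC arrays reached 21.5.

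Among cell surface receptors and adhesion proteins, Itga11, the alpha subunit of a collagen-binding integrin, had 701 and 729 on the Recovery arrays, 389 and 374 on the 5aza-dC arrays and 292 and 351 on the Mock arrays. The lower Recovery array lay 1.00 above the higher Mock array, and the 5aza-dC arrays lay above both Mock arrays (0.25 for the columns). Cdh13 (T-cadherin), a cadherin held in the membrane by a lipid anchor and lacking a cytoplasmic tail, had 409.8 and 465 on the Recovery arrays, 115 and 127 on the 5aza-dC arrays and 167 and 181 on the Mock arrays. It was the gene with the largest Recovery minus 5aza-dC of the 21 (1.86), with both 5aza-dC arrays below both Mock arrays (-0.53) and the Recovery arrays above them (1.33). Pdgfrb, the receptor for platelet-derived growth factor B that drives fibroblast and pericyte growth, had 52.9 and 48.8 on the Recovery arrays, 17.3 and 29.2 on the 5aza-dC arrays and 22.2 and 20.5 on the Mock arrays. The 5aza-dC arrays of Pdgfrb lay on either side of the Mock arrays, and Recovery minus Mock was 1.25. Mrgprf, an orphan G protein-coupled receptor of the Mas-related family, had 262 and 275 on the Recovery arrays, 118 and 134 on the 5aza-dC arrays and 110.4 and 124 on the Mock arrays, with the 5aza-dC and Mock arrays overlapping and a Recovery minus Mock of 1.20.

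Proteins of muscle and the cytoskeleton formed the next group. Fhl1, a LIM-domain protein abundant in skeletal and heart muscle, had 3962 and 3687 on the Recovery arrays, 1548 and 1609 on the 5aza-dC arrays and 1657 and 1813 on the Mock arrays. Both 5aza-dC arrays lay below both Mock arrays by a small margin (-0.14 for the columns), and the Recovery arrays lay above all others (Recovery minus Mock 1.14). Acta1, the actin of skeletal muscle thin filaments, had 60.2 and 57.1 on the Recovery arrays, 23.1 and 23.0 on the 5aza-dC arrays and 22.3 and 34.3 on the Mock arrays. Its smallest gap, 0.74 between the lower Recovery and the higher Mock array, was the narrowest of the 21, and the higher Mock array stood apart from the lower one. Sspn (sarcospan), a membrane protein of the dystrophin-glycoprotein complex, had 135 and 152 on the Recovery arrays, 76.8 and 68.5 on the 5aza-dC arrays and 55.6 and 66.5 on the Mock arrays. The 5aza-dC arrays of Sspn were above both Mock arrays, and the Recovery arrays lay above both groups.

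Lmo7, a LIM-domain protein that binds emerin and acts at actin-linked junctions, had 98.2 and 98.0 on the Recovery arrays, 35.9 and 27.5 on the 5aza-dC arrays and 31.8 and 27.7 on the Mock arrays. Its lower Recovery array lay 1.63 above the higher Mock array, the widest gap of the 21, and its 5aza-dC and Mock arrays overlapped. Kalrn (kalirin) had 33.5 and 40.4 on the Recovery arrays, 14.9 and 7.06 on the 5aza-dC arrays and 14.5 and 16.1 on the Mock arrays. It was detected in Mock at an intensity below the floor of 16 and not in 5aza-dC, so that its Recovery minus Mock of 1.21 rests on the floor. Dpysl3, a protein of the CRMP family that binds tubulin and actin, had 623 and 613 on the Recovery arrays, 393 and 400.0 on the 5aza-dC arrays and 307 and 309 on the Mock arrays. The arrays of each group lay close together for Dpysl3 and the 3 groups did not overlap, with a 5aza-dC minus Mock of 0.36 and a Recovery minus Mock of 1.01.

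The remaining genes act in the nucleus, in metabolism, in cell survival and elsewhere. Trps1, a zinc finger repressor of the GATA type that acts in cartilage and hair follicles, had 307 and 319 on the Recovery arrays, 128 and 136 on the 5aza-dC arrays and 119.6 and 140.0 on the Mock arrays; Recovery minus Mock was 1.27, and the 5aza-dC arrays lay between the Mock arrays. Bcl2, an inhibitor of the mitochondrial pathway of cell death, had 72.0 and 77.3 on the Recovery arrays, 41.4 and 47.7 on the 5aza-dC arrays and 41.1 and 33.2 on the Mock arrays. The 5aza-dC arrays of Bcl2 lay slightly above the Mock arrays (0.26 for the columns). Mgst3, a membrane-bound glutathione transferase, had 635 and 647 on the Recovery arrays, 287 and 309 on the 5aza-dC arrays and 207 and 253 on the Mock arrays. Its 5aza-dC arrays lay above both Mock arrays, and its 5aza-dC minus Mock (0.38) was the highest of the 21.

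Brinp3, a secreted or membrane-associated protein studied mostly in the nervous system, had 261 and 265 on the Recovery arrays, 105 and 115 on the 5aza-dC arrays and 107 and 108 on the Mock arrays, so that 5aza-dC and Mock differed by 0.03 and Recovery exceeded Mock by 1.29. Guf1, a mitochondrial GTPase of translation, had 54.7 and 56.1 on the Recovery arrays, 24.6 and 32.05 on the 5aza-dC arrays and 26.9 and 23.7 on the Mock arrays, with the 5aza-dC and Mock arrays overlapping. Galnt18, of the family of transferases that begin mucin-type O-glycosylation, had 31.6 and 32.8 on the Recovery arrays, 11.3 and 10.9 on the 5aza-dC arrays and 10.9 and 10.8 on the Mock arrays. Galnt18 was not detected in Mock and stood below the floor in 5aza-dC, which puts it at least 2.01-fold higher in Recovery than in Mock. Xlr4a belongs to a cluster of X-linked genes, some of them imprinted, that were first found in lymphocytes. It had 48.5 and 61.01 on the Recovery arrays, 7.31 and 11.8 on the 5aza-dC arrays and -2.18 and -6.94 on the Mock arrays, was not detected in 5aza-dC or Mock, and was at least 3.42-fold higher in Recovery than in Mock. The 5aza-dC arrays of Xlr4a lay above the Mock arrays before the floor was applied, with a detection p-value of 0.034 for the 5aza-dC column.

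Other probes of the same genes were not used to choose them, although they measured the same RNA on the same arrays. There were 32 such probes for 13 of the 21 genes, and 12 of them, for 7 genes, were detected in Recovery. Of these 12, 7 probes for 6 genes were at least 2-fold higher in Recovery than in Mock, where 1.73% of the 4228 other probes of all genes detected in Recovery were. The 4228 were not limited to genes chosen as higher, and only probes detected in Recovery, the group where the 21 genes are high, were counted. The higher share is therefore a description and was not tested. All 12 had a 5aza-dC minus Mock below 0.5, as did 84.7% of those 4228 probes. The other Mgst3 probe gave a Recovery minus Mock of 1.26, the larger of the other Trps1 probes 1.104, the brighter of the other Itga11 probes 1.15, and both other Fhl1 probes 1.104 and 1.26, the second with 5aza-dC and Mock below the floor. Both other Cdh13 probes, at 1.20 and 0.98, also had 5aza-dC below Mock (-0.87 and -0.71). One other Bcl2 probe gave 1.14 and another -0.42, with 25.8 and 25.7 on the Recovery arrays, 28.1 and 17.3 on the 5aza-dC arrays and 29.5 and 39.6 on the Mock arrays, so the probes of Bcl2 went opposite ways. Another Trps1 probe gave 0.44. The other Col2a1 probe and a dim Itga11 probe were not detected in Mock, so their values of at least 0.49 and at least 0.06 are bounds set by the floor, with intensities of 22.4 and 16.7 in Recovery. That Col2a1 probe was also detected in 5aza-dC, at 15.0 against 1.22 in Mock. The remaining 20 probes, for 8 genes, were not detected in Recovery and give no difference to compare. Adamts1, Adamtsl3, Brinp3, Galnt18, Guf1 and Kalrn had other probes but none that was detected in Recovery, so their values rest on the probe used by the rule.

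**Figure D3:**
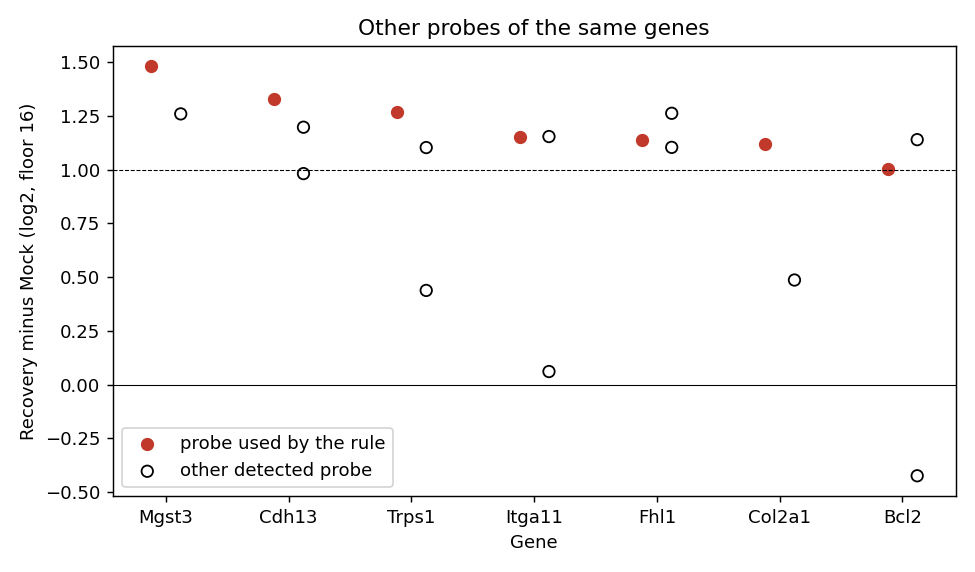
Recovery minus Mock (log2, floor 16) is given for the probe used by the rule (red) and for each other probe detected in Recovery (open circles) of 7 genes. Of the 12 open circles, 7 lie above the dashed line at 1.0, and 1 of the Bcl2 probes lies below 0, at -0.42.

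Relatives of the 21 genes were examined in families that were written down once the 21 were known. In the ADAMTS-like family, all of whose 4 measured genes were detected in some group, Adamtsl4 was also higher in Recovery than in Mock (1.40), but it was already so in 5aza-dC (1.02), and Adamtsl2 was near background. Of 6 detected secreted ADAMTS proteases (17 measured), Adamts1 was the 1 higher by at least 2-fold, and Adamts9 was lower, with 46.6 and 51.6 on the Recovery arrays, 74.3 and 99.2 on the 5aza-dC arrays and 162 and 215 on the Mock arrays. Among the microsomal glutathione transferases, Mgst1 and Mgst2 went opposite to Mgst3. Mgst1 had 176 and 191 on the Recovery arrays, 616 and 628 on the 5aza-dC arrays and 491 and 468 on the Mock arrays, and Mgst2 had 24.3 and 17.5 on the Recovery arrays, 106 and 114 on the 5aza-dC arrays and 50.5 and 81.8 on the Mock arrays, so that Recovery minus Mock was -1.38 and -1.66, against 1.48 for Mgst3.

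Of the LIM-domain relatives of Fhl1, Fhl2 was lower in Recovery than in Mock (-0.89) and lower still in 5aza-dC (-1.13), and Fhl3 differed by 0.29. Itgb1, the beta chain with which the Itga11 product pairs, had 303 in Recovery, 342 in 5aza-dC and 346 in Mock, a Recovery minus Mock of -0.19, and Itga1 and Itga2 were not detected. Of the PDGF family, Pdgfra was higher in Recovery (1.35) and more so in 5aza-dC (1.86), and the ligand Pdgfb was lower in Recovery (-2.19). In the dystrophin-glycoprotein complex (8 of 12 measured genes detected), Sspn was the 1 gene past 2-fold, followed by delta-sarcoglycan Sgcd (0.64) and dystrobrevin Dtnb (0.58), while Dtna (-0.90) and Sgcb (-0.57) were lower. Of the cell survival genes related to Bcl2, Mcl1 (-0.53) and Bcl2l1 (-0.44) were slightly lower and Bcl2l2 slightly higher (0.28).

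Among the actins, Acta2 and Actg2, the smooth muscle forms, had Recovery minus Mock values of 0.85 and 3.66, with 5aza-dC minus Mock at -0.57 and -0.01. Actin genes are near-identical in their coding sequence, the intensity of Acta2 was 21142 in Recovery, 7904 in 5aza-dC and 11724 in Mock, and a bead probe may not separate the forms, so the value of Acta1 is uncertain to that extent. The other 5 measured XLR genes were not detected, although probes of this cluster may likewise be shared. Of the other DPYSL genes, Dpysl2 (0.26) and Crmp1 (0.27) differed little. Of the cartilage genes, Sox5 was higher in Recovery (1.85) and in 5aza-dC (1.03), Sox9 stayed close to Mock (-0.14) and Acan was lower (-0.85).

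**Figure D4:**
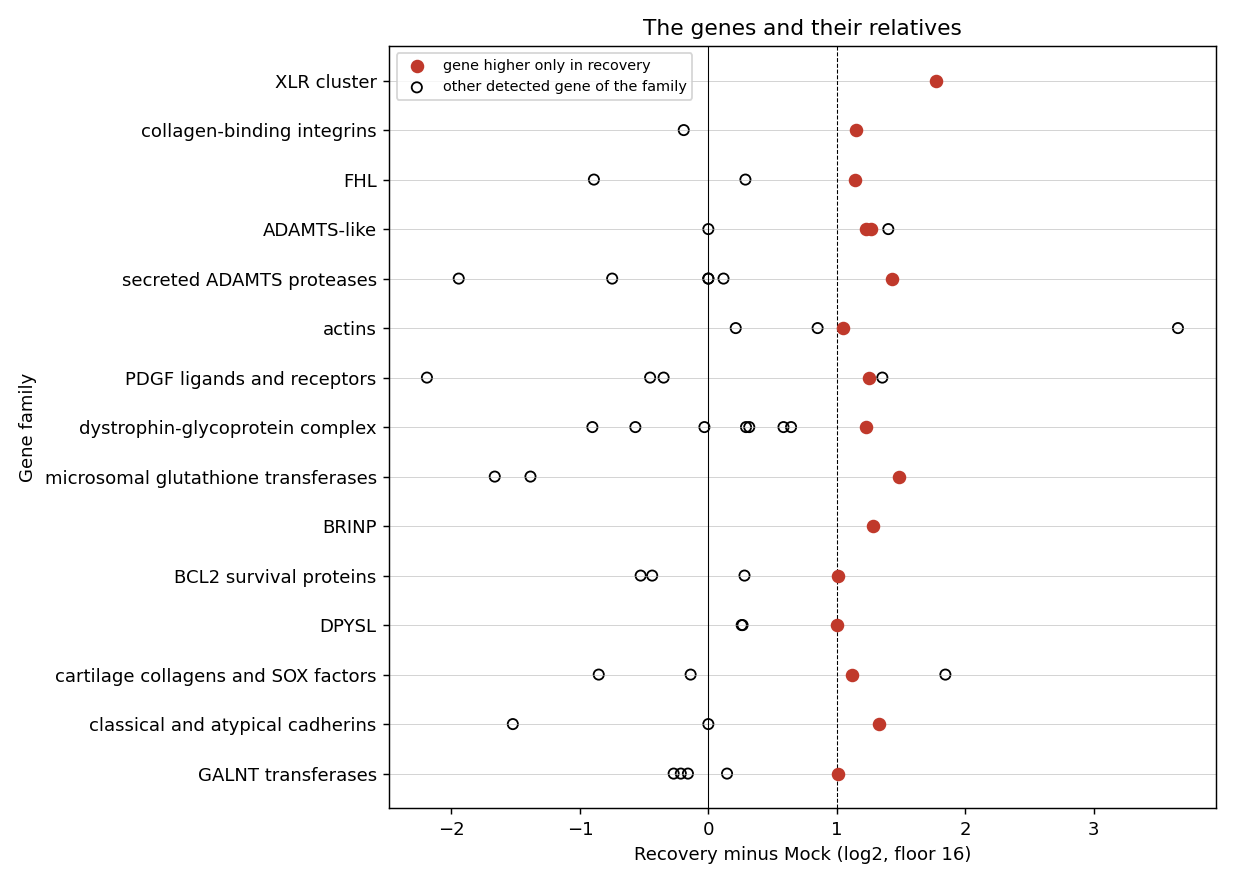
Recovery minus Mock (log2, floor 16) is shown for the genes higher only in recovery (red) and the other detected genes of their families (open circles), 1 family to a row. The red points lie between 1.01 and 1.78, and most open circles lie below the dashed line at 1.0; among those beyond it are Adamtsl4 at 1.40 and Actg2 at 3.66.

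Promoter sequence was not used in choosing the genes. RefSeq promoters of 300 bases on GRCm38.p6 (250 before and 50 after a gene's start) were on hand for 12 of the 21 genes and for 7207 of the detected genes. A promoter was counted as CpG rich at an observed over expected CpG ratio of at least 0.6 and a GC content of at least 50%. At least 1 CpG-rich promoter was found for 4 of the 12 genes (Adamtsl3, Bcl2, Lmo7 and Mgst3), or 33.3%, against 75.8% of the detected genes and 57.1% (80 of 140) of the other genes at least 2-fold higher in Recovery than in Mock. The median ratio, taking the highest promoter of each gene, was 0.50 for the 12 genes, 0.70 for those 140 and 0.80 for all detected genes. With 12 genes these shares are a description.

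To show this range, 250 bases before the start are given for the gene with many CpGs and for one with few, with each CpG in capitals. The Adamtsl3 window held 39 CpGs, and the window of 1 of the Sspn promoters held 2.
Adamtsl3 chr7:82335444-82335693 (plus strand): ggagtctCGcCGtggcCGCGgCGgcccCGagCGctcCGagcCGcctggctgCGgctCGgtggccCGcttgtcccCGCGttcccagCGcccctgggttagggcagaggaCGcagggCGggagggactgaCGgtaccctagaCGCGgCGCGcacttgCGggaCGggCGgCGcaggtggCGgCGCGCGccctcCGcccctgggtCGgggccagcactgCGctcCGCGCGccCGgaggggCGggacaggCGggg
Sspn chr6:145931623-145931872 (plus strand): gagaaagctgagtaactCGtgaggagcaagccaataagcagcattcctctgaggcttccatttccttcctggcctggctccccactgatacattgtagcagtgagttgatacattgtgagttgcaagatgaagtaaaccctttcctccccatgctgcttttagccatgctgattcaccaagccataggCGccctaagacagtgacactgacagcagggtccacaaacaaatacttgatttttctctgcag

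**Figure D5:**
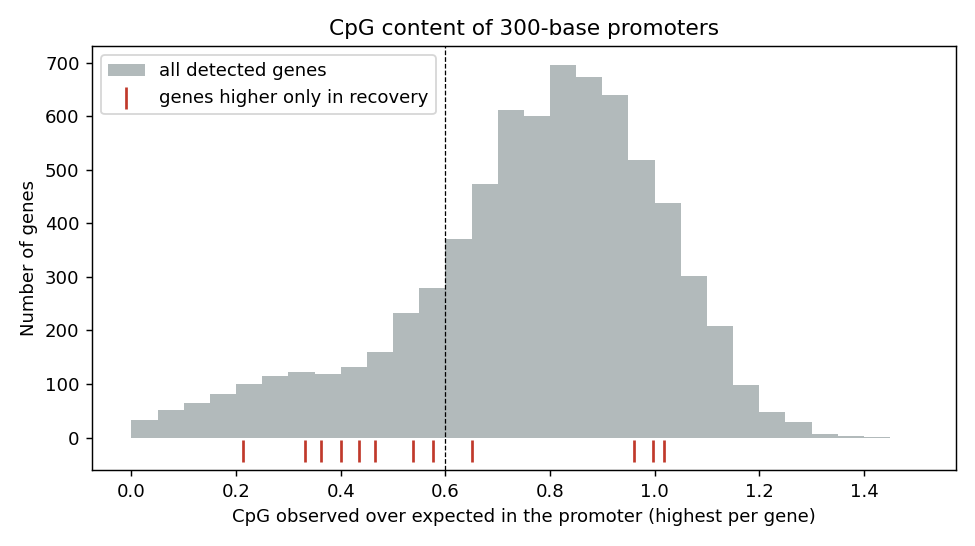
The histogram gives the number of detected genes by the highest observed over expected CpG ratio among their promoters, and the red ticks mark the 12 genes higher only in recovery. The ticks range from 0.21 to 1.02, and 8 of the 12 genes are not CpG rich by the threshold marked by the dashed line at 0.6 together with the GC limit.

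The CArG box, the binding sequence of serum response factor (SRF), which drives many actin and muscle genes, was searched on both strands. It was present in a promoter of 2 of the 12 genes (16.7%), Acta1 and Fhl1, and in 1.65% of the detected genes. The sequence TATAAA, also searched on both strands, was found for 3 of the 12 genes (25%) and 8.99% of the detected genes, and GGAATG, the core bound by TEAD factors, for 3 (25%) and 14.3%. TGACTCA, a form of the AP-1 site, was in none of the 12 and in 4.86% of the detected genes. These matches are letters in a window and were not tested as sites. The promoters of Acta1 and Fhl1 before the start are shown with the CArG box, and in Acta1 also TATAAA, in capitals. Fhl1 has its TATAAA match on the other strand (read here as tttata), and it is left in small letters. The box begins 73 bases before the start in Acta1 and 102 bases before it in Fhl1.
Acta1 chr8:123894776-123895025 (minus strand): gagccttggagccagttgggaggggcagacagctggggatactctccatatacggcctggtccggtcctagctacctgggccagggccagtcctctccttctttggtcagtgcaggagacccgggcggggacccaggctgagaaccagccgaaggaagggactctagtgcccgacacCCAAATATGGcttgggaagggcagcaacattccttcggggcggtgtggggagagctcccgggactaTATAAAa
Fhl1 chrX:56779433-56779682 (plus strand): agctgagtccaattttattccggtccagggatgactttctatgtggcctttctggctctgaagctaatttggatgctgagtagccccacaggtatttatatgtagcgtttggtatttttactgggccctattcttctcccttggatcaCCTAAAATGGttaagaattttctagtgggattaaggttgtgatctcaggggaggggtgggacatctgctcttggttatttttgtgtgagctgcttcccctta

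The 21 genes lie on 12 chromosomes and 2 of them are on X. Of the 41 nearest detected neighbours on either side, 2 were at least 2-fold higher in Recovery than in Mock, Sybu beside Trps1 (1.20) and Tuba3b beside Sspn (1.27), and both were also higher in 5aza-dC (1.14 and 3.19). The median of the neighbours was -0.03. Tpcn2, an ion channel gene next to Mrgprf, had a Recovery minus Mock of 0.77 and a 5aza-dC minus Mock of 0.17.

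Outside the 21 genes, the patterns over the 3 columns most like the median of the 21 (r of 1.00 after rounding over 3 groups, then the largest difference) were those of Cenpx (0.85), Tk1 (0.84), Cd248 (0.82), 9330151L19Rik (0.79), Tpcn2 (0.77) and Klf3 (0.74), given as Recovery minus Mock. Just inside the threshold on Recovery minus Mock were Dpysl3 (1.01), Bcl2 (1.01), Acta1 (1.05), together with Galnt18 and Col2a1. The last pair was not detected in Mock, so their values of at least 1.01 and at least 1.12 are bounds set by the floor and give no place in that order. Just outside it were Kif13a (0.98), Numa1 (0.96), Gask1b (0.95), Hs3st3a1 (0.95) and Tcf7l1 (0.94), of which Gask1b was the furthest below Mock in 5aza-dC (-0.81). Just inside the threshold on 5aza-dC minus Mock were Mgst3 (0.38), Dpysl3 (0.36), Bcl2 (0.26), Sspn (0.25) and Itga11 (0.25). Just outside it were Sema3f (0.59), Plekhg2 (0.60), Pmp22 (0.62), Bbx (0.63) and Tbc1d5 (0.64), so that a gap from 0.38 to 0.59 separated the sides.

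Wider gene lists near the functions of these genes were mixed in Recovery. The list of matrix proteins holds none of the 21 genes, and the other lists given here hold 1 each (Adamts1, Itga11, Cdh13 and Col2a1). These genes count as higher by the thresholds that chose them. Of 31 detected matrix processing enzymes (40 measured), 1 was at least 2-fold higher in Recovery than in Mock (Adamts1) and 4 were lower, with a median of 0.12. Of 33 detected matrix proteins (53 measured), 3 were higher and none was lower (Spon2 1.59, Emilin2 1.12 and Ecm1 1.07), with a median of 0. Of 22 detected contractile and cytoskeletal genes (33 measured), Itga11 was the 1 higher and none was lower, with a median of 0.01. That list does not hold Actg2 or Myl9, a myosin light chain of smooth muscle, which met the thresholds and were left out by name, with a Recovery minus Mock of 3.66 and 1.59. Of 28 detected adhesion and junction genes (49 measured), 1 was higher (Cdh13) and 2 were lower (Cdh6 -1.52 and Epha2 -1.04). Of 11 detected bone and cartilage genes (28 measured), 3 were higher (Scx 2.13, Sox5 and Col2a1). The shares for all detected genes were 2.45% higher and 2.95% lower.

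Markers of other cell types were also looked at, since Acta1 and Col2a1 are markers of muscle and cartilage. Of 5 measured skeletal muscle markers, Acta1 alone was detected. The summed intensity of the 5 (values below 0 set to 0) was 82.0 in Recovery, 40.4 in 5aza-dC and 42.3 in Mock. Most of it was Acta1 itself (58.6, 23.0 and 28.3), a gene chosen for being higher in Recovery, so the sum adds nothing to the value of Acta1. Of 6 cartilage and bone markers, Col2a1, Sox9 and Acan were detected, and their sum, nearly all of it Sox9, was 4929 in Recovery, 4843 in 5aza-dC and 5399.5 in Mock. None of 6 endothelial and 4 blood cell markers was detected in any group. Of 5 smooth muscle markers on the list Smtn was detected, with a Recovery minus Mock of -0.50. Some other smooth muscle transcripts, which the list does not hold, were higher in Recovery than in Mock. They were Actg2 (3.66), Myl9 (1.59), Acta2 (0.85) and Tagln (0.62), named after their values were seen. Their 5aza-dC minus Mock was -0.01, -0.10, -0.57 and -1.38. Other contractile transcripts differed less or went the other way in Recovery, with Mylk at 0.26, Actn1 at -0.04 and Cald1 at -0.30. Of 6 epithelial markers 3 were detected, and of these the keratins Krt14 and Krt8 were at least 2-fold higher in Recovery than in Mock (1.75 and 1.42). Both keratins were far higher in 5aza-dC (4.82 and 4.62). Of 5 adipocyte markers the regulator Pparg alone was detected, and it was higher in Recovery and in 5aza-dC (1.46 and 2.04). Of 4 germ cell markers 3 were detected, and Tex19.1 was the 1 at least 2-fold higher in Recovery than in Mock. Tex19.1 had 189.7 and 203 on the Recovery arrays, 683 and 719 on the 5aza-dC arrays and 5.34 and 5.53 on the Mock arrays, where it was not detected. Of 5 neural markers Map2 was detected (0.65). The part of these markers in the values of the 21 genes was not tested, and in RNA of whole cultures a change in the share of cells and a change per cell cannot be told apart.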

How the data were processed

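Per the labels' protocols, total RNA was extracted with TRIZOL and labelled with biotin using a TotalPrep kit. Per the file headers, the first deposited table holds non-normalized signal intensity and a detection p-value for each of 45281 probes. The second deposited table holds intensity after background subtraction and scaling by the authors, which is read from its values, whose mean is 224.5 in each column. The sources used here do not give the software. Each group has 1 column, so the deposited columns allow no test, and no test was made on the arrays. Array annotation gave 1 gene symbol to 34885 probes, several to 18, and did not list 10378. Names and neighbours came from RefSeq tables of GRCm38.p6, whose build the deposited files do not name.

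The detection p-values move in steps that fit 2 arrays of 936 negative controls (100.0% within 0.02 of a step). The 2 arrays were solved from both deposited tables with probes of a detection p-value between 0.05 and 0.97. The misfit SD was 0.00163 in Recovery, 8.74e-04 in 5aza-dC and 8.91e-04 in Mock, against 0.0295, 0.0288 and 0.0381 with 1 array. The solving step was repeated on simulated data of 45281 probes, built from the solved arrays with the same model of 2 arrays. The median log2 error of 1 array per group was 8.60e-05 for Recovery, 5.28e-05 for 5aza-dC and 2.03e-04 for Mock, over probes above the floor. The simulation shares the model, so it cannot show whether the model holds for the deposited tables. The number of arrays limits the precision. Intensities below 16 were set to 16 before log2. A gene not detected (p-value of 0.01 or more) has a bound against that floor, since detected probes went as low as 12.5, 10.7 and 10.8 in Recovery, 5aza-dC and Mock.

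Named are the 21 genes, the 5 on either side of each threshold, 6 of like pattern and, of the drug targets, Dnmt1. Relatives, neighbours and list genes were named after their values were seen. The members and lists were chosen with earlier results of these data known. Alternatives changed the floor, normalization (neqc of limma 3.58.1 in R 4.3.3), scaling, detection limit, probe choice and arrays. There were 0 columns of other samples.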

Additional observations from a re-analysis of the deposited data

Results flagged for a closer look

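Probes without a gene name in the annotation used here took no part in the choice of genes. Of 10378 such probes, 2100 were detected in at least 1 group and 10 met the same 3 thresholds, with a Recovery minus Mock of 1.03 to 2.33. The largest was that of probe ILMN_1231168, with an intensity of 113.4 in Recovery, 16.2 in 5aza-dC and 22.5 in Mock. The next, ILMN_2652458, had 346.5 in Recovery, 100.3 in 5aza-dC and 97.6 in Mock. Their transcripts were not identified here.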

How the results depend on the processing

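Every one of the 21 genes kept a Recovery minus Mock above 0 under each alternative except a floor of 64, where 13 did and the others lay at the floor in both groups. The 21 genes were chosen at 1.0 or more in these data, so values above 0 largely follow from the thresholds. With a floor of 32 the lowest value was 0.008. The thresholds were met by 21 genes with a detection p-value below 0.05 and by 23 with median scaling. With neqc 17 met them (14 of the 21 among them), and with a floor of 32 16 did (13 of the 21). They were met by 35 genes with a floor of 8 (20 of the 21, all but Col2a1) and by 10 with a floor of 64 (9 of the 21). Without background correction 9 met them (5 of the 21), and with the mean over all probes of a gene 12 did (11 of the 21). Higher floors and uncorrected background pull differences of dim genes toward 0 by construction. The median Recovery minus Mock of the 21 was 1.14 with a floor of 32, 0.62 with a floor of 64, 1.12 with neqc, 0.84 without background correction and 1.01 with the mean over probes. Their median Recovery minus 5aza-dC was 1.25 with a floor of 8, 0.91 and 0.62 with floors of 32 and 64, 0.70 without background correction, 0.81 with the mean over probes and 1.29 after quantile normalization of the 6 solved arrays, an alternative added after seeing the data that 22 genes met. Among all genes, at least 2-fold higher and lower in Recovery than in Mock were 143 and 173 with a floor of 32, 92 and 118 with a floor of 64, 153 and 142 with neqc, 56 and 44 without background correction, and 114 and 162 with the mean over probes. Stricter CpG limits (0.75 and 55%) left 2 of the 12 genes CpG rich, against 52.9% of the detected genes.

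With each array left out in turn, 21 to 28 genes met the thresholds, the medians of the 21 ran from 1.17 to 1.28 (Recovery minus Mock), 1.08 to 1.22 (Recovery minus 5aza-dC) and 0 to 0.17 (5aza-dC minus Mock), and 202 to 284 genes were at least 2-fold higher. The number lower, 261, was 437 and 132 without the one or the other Mock array. Leaving out a Recovery array lost Dpysl3 or Bcl2 and Galnt18, and leaving out a Mock array lost Acta1 or Bcl2 and Mgst3. No paired analysis was possible because each group has 1 label and the arrays carry no numbers. Dim genes limit the reading: below an intensity of 64, arrays of a group differed by a median of 0.20 in Recovery, 0.20 in 5aza-dC and 0.29 in Mock (log2).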
